A study of Mus musculus with 18 samples.

Results

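Cones that carried an added copy of Txnip were compared with control cones in the C57BL/6J strain. The libraries were those labelled as Txnip or control cones of this strain, 3 of each, which made 6 of the 18 libraries of the series. C57BL/6J is a pigmented strain with a WT retina, and it carries a null mutation in Nnt, which both groups share. Retinas of both groups were collected at postnatal day 35. Those of the Txnip group had been given AAV8-RedO-Txnip, in which the red opsin promoter drives Txnip in cones, together with AAV8-SynP136-H2BGFP, whose cone promoter drives a green fluorescent histone that marks nuclei for sorting. Control retinas had been given AAV8-SynP136-H2BGFP alone, so the groups differed by 1 whole vector and not by the Txnip sequence only. Both were injected at birth. Each library was made from 1000 sorted cones of 1 retina, and the labels do not say which retinas shared a mouse, so p-values measure only the spread between these libraries. The other 12 libraries came from the albino strain BALB/c at postnatal day 21, with 6 Txnip and 6 control libraries, and strain, age and any sequencing run cannot be told apart.

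Cones are the photoreceptors of daylight and color vision, and they live among far more numerous rods. They burn large amounts of glucose, mostly by aerobic glycolysis, and pass current through light-sensitive channels that ion pumps must offset. Txnip (thioredoxin interacting protein) belongs to the arrestin domain family. It holds thioredoxin, which reduces oxidized cysteines, in an inactive complex and restrains glucose uptake, and glucose normally switches its own gene on. The question here was what else in the cone transcriptome differed once Txnip was added, and which pathways were measured well enough to bound a difference.

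Txnip (ENSMUSG00000038393, chr3:96557957-96561883 of GRCm38, plus strand) shares 606 exonic bases with Gm15441 (ENSMUSG00000074398, chr3:96555765-96566801, minus strand), a non-coding gene on the opposite strand. Since a fragment was counted for every gene it overlapped and strand was not used, a Txnip fragment that fell in the shared bases was counted for both genes. Of the 1191 coding bases of Txnip, 327 (27.5%) lay in Gm15441 exons, within exons 1 and 5 of 8. These are shown because they are the bases through which a coding copy of Txnip is counted as Gm15441. They are the coding parts of those exons in the GENCODE M21 transcript, on the plus strand of GRCm38 at chr3:96558236-96558485 and chr3:96559589-96559845, with the bases shared with Gm15441 exons in capitals.
Txnip coding part of exon 1: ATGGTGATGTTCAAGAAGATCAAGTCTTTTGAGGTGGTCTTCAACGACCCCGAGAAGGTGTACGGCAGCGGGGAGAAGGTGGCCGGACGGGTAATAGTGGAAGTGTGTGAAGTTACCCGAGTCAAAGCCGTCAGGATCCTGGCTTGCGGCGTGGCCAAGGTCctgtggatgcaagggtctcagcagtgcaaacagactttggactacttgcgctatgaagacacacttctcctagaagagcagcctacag
Txnip coding part of exon 5: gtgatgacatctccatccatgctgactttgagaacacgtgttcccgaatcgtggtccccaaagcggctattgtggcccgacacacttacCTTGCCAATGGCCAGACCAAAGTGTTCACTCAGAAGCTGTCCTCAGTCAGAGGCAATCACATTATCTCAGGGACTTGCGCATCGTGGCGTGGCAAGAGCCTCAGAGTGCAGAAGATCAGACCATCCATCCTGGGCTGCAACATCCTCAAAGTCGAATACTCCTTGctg

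Txnip itself separated the groups completely. The 3 control libraries held 1, 1 and 0 Txnip counts, and the 3 Txnip libraries held 6874, 2238 and 8536. As CPM, counts scaled to a common library size, these were 0.347, 0.346 and 0 in controls and 1724, 804 and 1885 with Txnip. Every Txnip library was far above every control, and Txnip replicate 2 stood lowest of the Txnip libraries, 2.34-fold below the highest. The log2 fold change (Txnip minus control throughout) was 12.55 ± 0.66 (SE), with an adjusted p of 1.27e-04 in the quasi-likelihood test of edgeR, adjusted after Benjamini and Hochberg. Because controls held 2 counts in all, the ratio of pooled counts, 7144-fold, had a counting interval of 1977 to 58997 (95%). A two-sided exact permutation test over the 6 libraries gave p = 0.1, the smallest that 3 against 3 can give. Per kilobase of exon, the mean Txnip level in Txnip cones was 471 CPM, which ranked 61 of the 54532 genes listed. On the same scale cone arrestin (Arr3) stood at 3343 CPM and the lactate dehydrogenase gene Ldhb at 66.5 CPM.

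Gm15441 followed Txnip. Its counts were 0, 1 and 0 in controls and 3522, 1091 and 4452 with Txnip, a fitted log2 fold change of 12.39 ± 0.71 (adjusted p = 1.44e-04), which depends on the prior count and was 14.41 without control replicate 2, the library with the 1 control count. The ratio of pooled counts was 7339-fold, with a counting interval of 1317 to 289920 (95%). In the 3 Txnip libraries its count was 0.512, 0.487 and 0.522 of the Txnip count, so the order of the libraries was the same for both genes. The part that shared fragments had in the Gm15441 count cannot be told from these tables.

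No other gene was called. Of 54532 genes listed, 12974 passed the filter on low counts and were tested, and the 2 called were 0.0154% of them, both higher with Txnip. The next adjusted p was 1.00. At an unadjusted p under 0.05 there were 97 genes (0.748%), where a uniform spread of p-values would put 649. Log2 fold changes were centred on 0, with a median of 0.01, 6762 genes (52.1%) above 0 and 6212 (47.9%) below. In 280 genes (2.16%) all 3 Txnip libraries lay above all 3 controls, and in 322 (2.48%) all lay below. An absolute log2 fold change over 1 was fitted for 211 genes, of which 5 were at or above the median expression level.

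**Figure D1:**
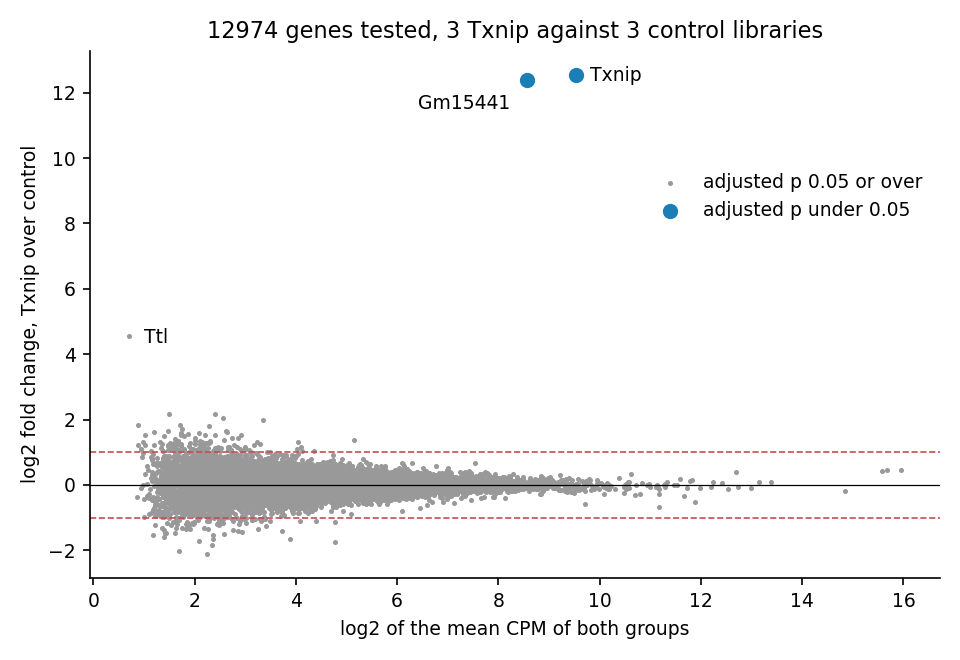
Each point is 1 of the 12974 genes tested, with log2 of its mean CPM over both groups on the horizontal axis and its log2 fold change (Txnip over control) on the vertical axis. Txnip and Gm15441, the 2 genes with an adjusted p under 0.05, stand above 12, Ttl stands at 4.55 at the low end of expression, and dashed lines mark 2-fold.

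What 3 libraries against 3 could show depended on expression level. The biological coefficient of variation was 34.3% here and 18.02% in BALB/c, and the median SE of a log2 fold change was 0.32 here and 0.18 there. The 95% interval of the log2 fold change lay inside 2-fold in either direction for 7207 genes (55.5%). With the genes ranked by expression and divided into 4 equal bins, this share was, from lowest to highest bin, 1.76%, 43.7%, 83.3% and 93.5%. To be called next, a gene needed an unadjusted p of 1.16e-05, which at the median SE is a 6.77-fold difference. At the median SE of the highest bin it is a 3.97-fold difference, and at that of the lowest bin a 31.2-fold one. These sizes hold at the median SE, and a gene with a smaller SE needed less.

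The 6 libraries differed in depth and in makeup within each group. They held 2437910 to 4880195 counted fragments. The share of counts on the 12 cone markers was 6.67%, 4.93% and 9.60% in control replicates 1 to 3 and 9.01%, 3.63% and 5.85% in Txnip replicates 1 to 3. Control replicate 3 and Txnip replicate 1 were the highest and Txnip replicate 2 the lowest, and cone markers were abundant in all 6, as the label says. The Wilson interval (95%) of any of these shares reached at most 0.0313 percentage points to either side, counting error only. These totals include the ribosomal RNA locus described below. With it left out, cone shares were 6.89%, 6.83% and 10.3% in controls and 9.56%, 4.98% and 7.34% with Txnip.

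Rod RNA set 1 library in each group apart. The 12 rod markers took 1.70%, 0.284% and 0.492% of counts in controls and 0.484%, 1.18% and 0.384% with Txnip. Control replicate 1 and Txnip replicate 2 were the rod-rich pair, whereas the 12 BALB/c libraries lay between 0.414% and 0.509%. Without the ribosomal RNA locus, the rod shares were 1.76%, 0.393% and 0.526% in controls and 0.513%, 1.63% and 0.482% with Txnip. The rod transducin Gnat1 stood at 2519, 254 and 451 CPM in controls and 386, 2375 and 447 CPM with Txnip. Nrl, the transcription factor that sets rod fate, stood at 151, 10.05 and 16.6 CPM against 6.77, 104 and 15.5 CPM. Of the 12 rod markers, 10 had their highest library of each group in this pair. The exceptions, Pde6g and Gngt1, were lowest of all 6 libraries in Txnip replicate 2, with Pde6g at 1767, 1941 and 2317 CPM against 2486, 1662 and 1976 CPM. In sorted bulk samples, fewer cells of a type and less RNA per cell cannot be told apart. With 1 rod-rich library on each side, the rod markers gave a median log2 fold change of -0.04 over 12 tested, which was 1.65 without control replicate 1 and -1.34 without Txnip replicate 2.

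Most markers of bipolar cells and Müller glia, 8 of 9 in each list, were highest of each group in the same pair. Trpm1, the channel of ON bipolar cells, stood at 53.1, 1.04 and 5.19 CPM in controls and 2.76, 151 and 1.32 CPM with Txnip. Rlbp1, a retinoid carrier of Müller glia, stood at 123, 3.46 and 27.3 CPM against 3.76, 99.2 and 4.20 CPM. The vascular receptor Kdr stood at 21.9, 0.693 and 8.57 CPM against 0, 24.4 and 1.55 CPM. It was the only endothelial marker tested, and 4 of 7 endothelial and 5 of 8 ganglion cell markers followed the pair. In the bipolar and Müller lists the exceptions were Cabp5 and Clu, both highest in control replicate 3 and Txnip replicate 1. Clu stood at 433, 359 and 499 CPM against 506, 317 and 366 CPM. Summed over 9 markers each, bipolar genes ran from 72.7 to 346 CPM in controls and from 103 to 538 CPM with Txnip, and Müller genes from 435 to 1013 CPM and from 453 to 884 CPM. Median log2 fold changes were 0.44 over the 7 bipolar and -0.24 over the 6 Müller markers tested. They were 1.86 and 0.81 without control replicate 1 and -2.12 and -2.21 without Txnip replicate 2. Of 8 amacrine markers 4 followed the pair, and Gad1 was highest in Txnip replicate 1. Their median was 0.64 over 5 tested. With 1 library left out it ran from 0.04 without control replicate 2 to 1.40 without control replicate 1, and it was 1.70 without both rod-rich libraries and -0.05 when each library had to hold 10 counts or more of a gene. The highest value was that of calretinin (Calb2), at 10.8, 0.693 and 1.04 CPM in controls and 22.1, 10.4 and 16.3 CPM with Txnip. Its groups overlapped by the level of control replicate 1, and its log2 fold change was 1.99 (95% interval 0.10 to 3.89, adjusted p = 1.00). The defining markers of the pigment epithelium were near 0, with Rpe65 at 0 in all 6 libraries and a sum of 0.779 to 8.27 CPM over 8 markers. Of 8 microglial markers only Csf1r passed the filter, and the summed level was 11.1 to 25.7 CPM.

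The rod-rich pair also differed from the rest in sex-linked RNA. Xist, the RNA that silences an X chromosome in female cells, had 0, 3723 and 2723 counts in controls and 2426, 2 and 5457 with Txnip. Eif2s3y, on the Y chromosome, stood at 79.8 CPM in control replicate 1 and 81.2 CPM in Txnip replicate 2, and at 0 in the other four libraries. Ddx3y, Uty and Kdm5d showed the same pattern. The libraries with Y-linked RNA and without Xist were thus the rod-rich ones, so sex and rod RNA cannot be told apart here, but each group had 1 such library. Tsix and Gm27927, which overlap Xist exons, varied with it.

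Ribosomal RNA divided the libraries differently. The 4 genes of the ribosomal RNA locus on chromosome 17 (Gm42418, AY036118, Gm26917 and CT010467.1) took 3.31%, 27.8% and 6.49% of counts in controls and 5.73%, 27.2% and 20.3% with Txnip. Control replicate 2 and Txnip replicates 2 and 3 were high, and the BALB/c libraries ran from 6.10% to 16.5%. Since 3 of these genes overlap and the same fragments count for each, CT010467.1 alone gives a lower share, from 1.29% to 12.8% of fragments. The mitochondrial ribosomal RNA mt-Rnr2 was high in the same libraries, with 2010.5, 12479.6 and 2526 CPM in controls and 2005, 10459.6 and 10045 CPM with Txnip. Several predicted genes on chromosomes 2 and 9 went with them, named after their values were seen. Gm10717 stood at 177, 505 and 72.2 CPM in controls and 47.4, 578 and 230.2 CPM with Txnip. Rgs9 and Bbs1, list members also picked after their values were seen, moved with this share. Rgs9, which shortens the light response by acting on transducin, stood at 105, 675 and 142 CPM against 117, 516 and 368 CPM. Bbs1, a part of the ciliary trafficking complex, stood at 18.7, 75.2 and 25.4 CPM against 29.4, 65.8 and 55.4 CPM. How many other genes moved with this share was not counted. The part of the ribosomal RNA share in these values was not tested.

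**Figure D2:**
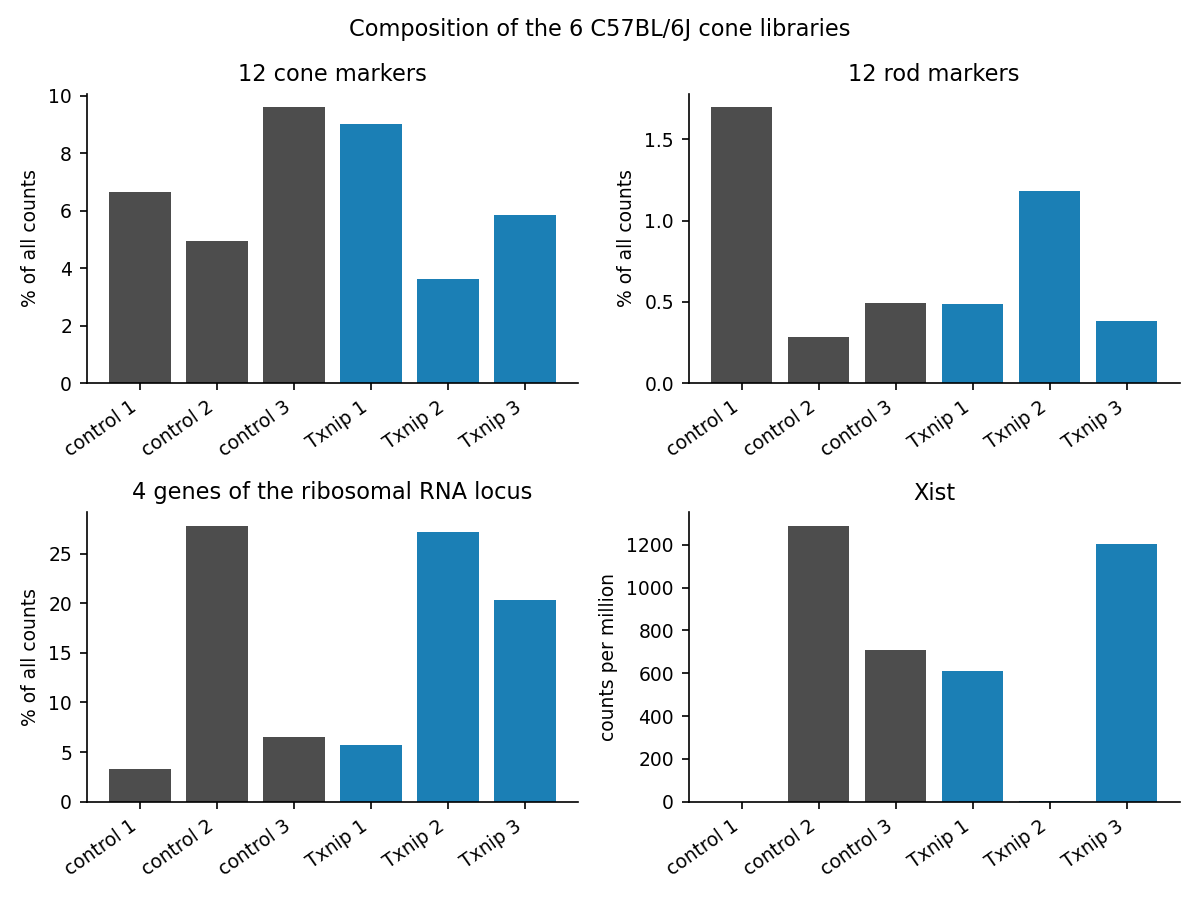
Bars give, for each of the 6 libraries, the percentage of all counts on 12 cone markers, 12 rod markers and 4 genes of the ribosomal RNA locus, and the level of Xist in CPM, with controls in gray and Txnip in blue. Control 1 and Txnip 2 are highest for rod markers and lack Xist, and control 2, Txnip 2 and Txnip 3 are highest for the ribosomal RNA locus.

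These divisions appeared again across the 6487 genes at or above the median level. The first principal component held 48.6% of the variance, the second 28.0% and the third 12.3%. On the first, Txnip replicate 1 (-28.6), control replicate 3 (-21.3) and control replicate 1 (-5.58) were negative, and Txnip replicate 3 (8.19), control replicate 2 (17.8) and Txnip replicate 2 (29.5) were positive, which divides low from high shares of the ribosomal RNA locus. On the second, the rod-rich libraries stood alone on the negative side at -28.0 and -12.1. The largest weights on this component were those of Xist (0.287), Tsix (0.241) and Gm27927 (0.189), on the positive side. Genes with large weights on the negative side included Trpm1 (-0.14), Rlbp1, Dkk3, Pcp2 and Cnga1. The third component separated the groups, with controls at -7.34, -11.9 and -11.0 and Txnip libraries at 13.9, 9.40 and 6.95. Txnip and Gm15441 held 47.4% of its squared weights. With these 2 genes left out, a choice made after seeing the data, the third component held 7.19% of the variance, and the groups stood closer but still apart, at -6.78, -4.65 and -8.27 in controls and 12.3, 8.17 and -0.786 with Txnip. Libraries of different groups were about as far apart as libraries of the same group, with median distances of 0.563 and 0.551 (root mean square of log2 CPM differences). The 2 closest pairs crossed the groups. Control replicate 2 and Txnip replicate 3 differed by 0.361 and control replicate 3 and Txnip replicate 1 by 0.389. The range was 0.361 to 0.713 between groups and 0.479 to 0.770 within them.

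**Figure D3:**
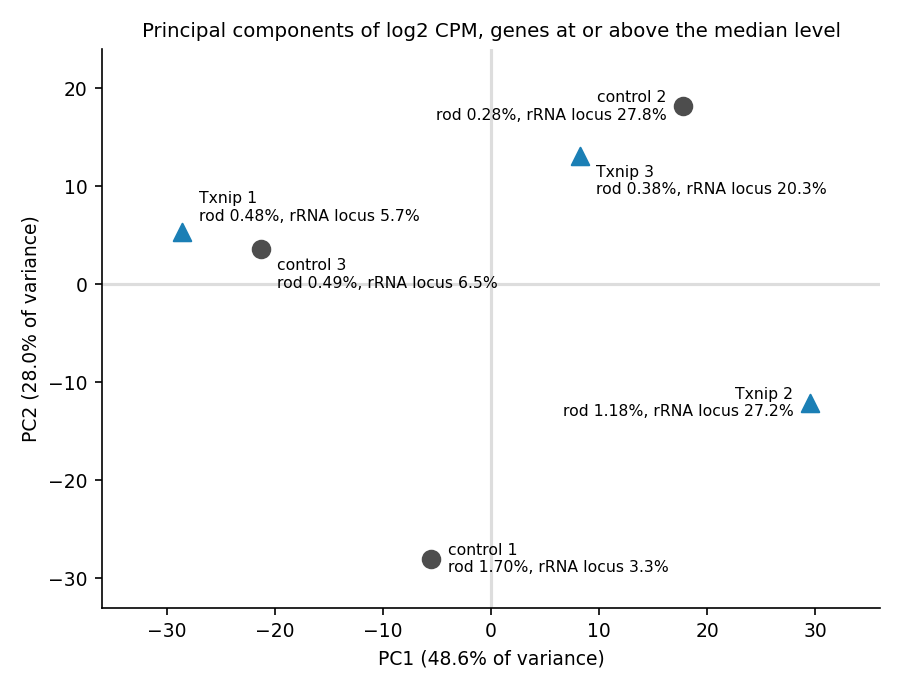
The 6 libraries are placed by their first and second principal components of log2 CPM over genes at or above the median level, with circles for control, triangles for Txnip, and the rod marker and ribosomal RNA locus shares beside each. Control 1 and Txnip 2 lie below 0 on the second component, and control and Txnip libraries are interspersed on these 2 components, which leave out the third, on which the groups separated.

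Of the 15 well expressed genes with the largest spread within groups, 3 were the Xist locus (Xist, Tsix and Gm27927), and 11 others had their highest level of each group in the rod-rich pair, among them Trpm1, Rlbp1, Nfasc, Dkk3, Pcp2, BC030499, Cnga1, Nrl and Ablim1. Nfasc, a cell adhesion molecule, stood at 68.0, 12.8 and 7.79 CPM in controls and 1.25, 139 and 13.7 CPM with Txnip. The groups overlapped for all of these, and 95% intervals spanned several log2 units, as in Trpm1 from -2.12 to 4.87. Sparcl1 was highest in control replicate 1 and Txnip replicate 1. Pcp2, a bipolar gene, shares 51.5% of its exonic bases with Pet100 on the opposite strand.

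The cone's own light-sensing genes were not called. Opn1sw, the short-wavelength opsin, stood at 26369.5, 21856 and 46663 CPM in controls and 40619, 13776 and 28304 CPM with Txnip. Arr3 stood at 6814, 8301 and 10179 CPM in controls and 9519.9, 6445 and 7656 CPM with Txnip. In both, the groups overlapped widely, and Txnip replicate 2 was the lowest of the 6 in Opn1sw and in Arr3. Log2 fold changes were -0.20 for Opn1sw (95% interval -1.24 to 0.84), -0.08 for the medium-wavelength opsin Opn1mw and -0.13 for the cone transducin Gnat2. Over the 12 cone markers the median was -0.06, and 10 of 12 intervals lay inside 2-fold, against 55.5% of all genes tested and 93.5% of the highest expression bin.

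Genes that regulate the light response gave a median of 0.08 over 17 tested, with 14 inside 2-fold. Above 0 lay 14 of them, and 52.1% of all genes. Sag, rod arrestin, which cones also express, stood at 7541, 8792 and 9895 CPM in controls and 12232, 6612 and 9038 CPM with Txnip, and the groups overlapped. The 3 genes that could not be bounded were Rgs9, the retinol dehydrogenase Rdh8, and the guanylate cyclase Gucy2f, whose level was 21.5, 3.12 and 0.779 CPM against 2.51, 39.5 and 3.09 CPM, with both maxima in the rod-rich pair. Outer segment and cilium genes had a median of 0.02 over 19 tested, 17 of them inside 2-fold. Prph2, which shapes the disc rim, stood at 2528, 2605 and 2351 CPM in controls and 2597, 2568 and 2420.3 CPM with Txnip, and all 6 libraries lay close together. Ift88, which carries cargo along the cilium, was the member whose groups did not overlap, at 19.8, 14.9 and 20.8 CPM against 25.8, 26.2 and 26.3 CPM (log2 fold change 0.50, 95% interval -0.07 to 1.06). Non-overlap with Txnip higher was met by 2.16% of all genes tested.

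Photoreceptor transcription factors had a median of 0.05 over 12 tested, 7 of them inside 2-fold. Crx, which drives photoreceptor genes, stood at 1386, 1442 and 1744 CPM in controls and 1564, 1230.3 and 1429.7 CPM with Txnip. The groups overlapped for Crx, and the interval of its log2 fold change ran from -0.64 to 0.41. Ribbon synapse genes, which serve the cone's tonic release of glutamate, had a median of 0.06 over 18 tested, with 16 inside 2-fold. Cacna1f, the calcium channel of the terminal, gave 0.12 (95% interval -0.46 to 0.69), and Slc17a7, which loads vesicles with glutamate, gave 0.26 (-0.43 to 0.94).

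Glycolytic enzymes were closely bounded. All 15 glycolytic enzymes had intervals inside 2-fold, with 12 above 0 and a median log2 fold change of 0.15 against 0.01 for all genes. Of all genes tested 52.1% lay above 0, and 93.5% of the highest expression bin had intervals inside 2-fold. Pkm, the last enzyme of the pathway, stood at 2718, 2847 and 3133 CPM in controls and 3781, 2526 and 3482 CPM with Txnip. Hk2, the hexokinase of photoreceptors, stood at 543, 599 and 827 CPM against 696, 549.9 and 714 CPM. The groups overlapped in both. The largest of the 15 was Pgk1 at 0.26 (95% interval -0.27 to 0.79).

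Genes that handle glucose, lactate and pyruvate had a median of -0.05 over the 17 tested of 19, with 14 inside 2-fold. Slc2a1, the main glucose transporter of the retina, stood at 154, 115 and 112 CPM in controls and 97.6, 113 and 108 CPM with Txnip, with a log2 fold change of -0.26 (95% interval -0.72 to 0.20). Ldhb, which favors lactate use, stood at 106, 77.9 and 116 CPM against 168, 60.7 and 85.0 CPM, and Ldha gave 0.00 (-0.66 to 0.66). Neither gene separated the groups. The 3 genes that could not be bounded were Slc2a3, Slc16a3 and Pdk1, and Slc2a3 and Pdk1 were highest of each group in the rod-rich pair. Nxnl1, which encodes the rod-derived cone viability factor, had all Txnip libraries below all controls, at 221, 219 and 215 CPM against 288, 225 and 230.1 CPM, and its log2 fold change was -0.18 (-0.62 to 0.26). Among all genes, 2.48% showed such a separation.

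In the mitochondrion, all 12 tricarboxylic acid cycle genes tested lay inside 2-fold with a median of -0.02, and so did 73 of the 74 nuclear genes of oxidative phosphorylation, with a median of 0.00 and values from -0.24 to 0.24. The remaining gene, Atp5g2, a subunit of the ATP synthase, had an interval from -1.06 to 0.73. Fatty acid oxidation and ketone genes had a median of 0.03 over 16, of which 15 lay inside 2-fold. Cpt2, which takes fatty acids across the inner membrane, had its Txnip libraries below its controls, at 38.1, 41.0 and 34.0 CPM against 52.4, 41.6 and 52.7 CPM (log2 fold change -0.38, 95% interval -0.86 to 0.10), as 2.48% of all genes tested did.

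The protein-coding genes of the mitochondrial genome, which encode subunits of the electron transport chain (ETC) and the ATP synthase, took 2.11%, 0.823% and 1.61% of counts in controls and 1.27%, 0.714% and 1.00% with Txnip, and the groups overlapped. All 8 genes tested of 13 had log2 fold changes below 0, as 47.9% of all genes did, with a median of -0.57. Of their intervals 2 lay inside 2-fold, and 0 were called, against 0.0154% of all genes. Cytochrome b (mt-Cytb) stood at 6009, 2509 and 4882 CPM in controls and 4168, 2185 and 2886 CPM with Txnip. The complex I subunit mt-Nd3 had the lowest value, -1.11 (95% interval -2.15 to -0.06, unadjusted p = 0.0396 in edgeR), and its adjusted p was 1.00. With 1 library left out, the median ran from -0.30 without control replicate 1 to -0.84 without control replicate 2. It was -0.31 with the ribosomal RNA share as a covariate and -0.20 without both rod-rich libraries. In BALB/c the median over 7 tested was 0.02. These genes lie on 1 molecule and are transcribed together, so their 8 values are not independent.

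Sodium potassium ATPase genes encode the pump that offsets the dark current. All 5 tested were below 0, as 47.9% of all genes were, with a median of -0.35 and values from -1.26 to -0.02. Of their intervals 2 lay inside 2-fold. The beta subunit Atp1b2 stood at 3533, 3109 and 3843 CPM in controls and 3503, 2731 and 3513 CPM with Txnip (log2 fold change -0.11, 95% interval -0.67 to 0.46), and the groups overlapped. Atp1b1, another beta subunit, was at 155, 11.1 and 13.0 CPM against 48.2, 39.2 and 32.2 CPM. Its highest library was control replicate 1, and without that library the median of the list was 0.16. The list median was 0.01 without both rod-rich libraries, -0.09 with the ribosomal RNA share as a covariate and 0.11 in BALB/c.

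The partners of Txnip were not called. The thioredoxin system, the other arrestin domain proteins and known regulators of Txnip had a median of 0.10 over the 14 tested of 17, with 8 inside 2-fold and values from -0.12 to 1.16. The highest was the arrestin domain gene Arrdc2, at 3.12, 7.62 and 2.60 CPM in controls and 12.3, 11.5 and 5.96 CPM with Txnip (95% interval -0.08 to 2.40), with groups that overlapped. Thioredoxin itself (Txn1) stood at 26.0, 23.9 and 34.0 CPM in controls and 38.4, 23.7 and 25.2 CPM with Txnip, and Txn2, its mitochondrial form, gave -0.12 (95% interval -0.69 to 0.46). Prkaa2, a catalytic subunit of the energy sensor AMPK, stood at 6.94, 13.5 and 7.53 CPM in controls and 14.6, 18.3 and 19.4 CPM with Txnip. All Txnip libraries were above all controls, with a log2 fold change of 0.90 (0.08 to 1.73, adjusted p = 1.00), and its sister Prkaa1 gave 0.33 (-0.71 to 1.38). Arrdc4, the closest relative of Txnip, also separated the groups, at 1.73, 2.08 and 2.86 CPM against 4.77, 3.23 and 3.98 CPM (0.83, -0.39 to 2.05). Such separation upward was met by 2 of 14 genes tested here and by 2.16% of all genes tested. Mlxipl, the glucose-sensing factor that switches Txnip on, was at or below 1.39 CPM in every library and was not tested.

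Stress and defense programs gave medians near 0. Nrf2 and antioxidant genes had 0.01 over 17 tested with 13 inside 2-fold, the unfolded protein and integrated stress response 0.00 over 17 with 14 inside 2-fold, and heat shock genes -0.04 over 10 with 9 inside 2-fold. Atf4, the main factor of the integrated stress response, stood at 209.9, 219 and 289 CPM in controls and 361, 212 and 255 CPM with Txnip, with groups that overlapped. Hypoxia genes had a median of 0.02 over 10, with 7 inside 2-fold. Immediate early genes had a median of -0.09 over 9, with 5 inside 2-fold, and 0.14 without control replicate 3. Egr1, an activity-induced factor, stood at 54.8, 58.2 and 146 CPM against 33.1, 45.3 and 70.2 CPM (log2 fold change -0.81, 95% interval -1.75 to 0.14). Of 26 interferon and antigen presentation genes only 7 passed the filter, with a median of -0.07, and the other 19 were too low to be tested. The list median was 0.14 in the alternative fit by DESeq2, which also tests lower genes, and 0.47 over 11 tested in BALB/c.

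Cell death and survival genes had a median of -0.17 over the 12 tested of 18, with 6 inside 2-fold. Parp1, which repairs DNA and consumes NAD, had its Txnip libraries just above its controls, at 156, 143 and 149.97 CPM against 122, 127 and 134 CPM, a log2 fold change of 0.23 (95% interval -0.17 to 0.63). Such separation upward was shown by 2.16% of all genes tested. The 4 photoreceptor stress genes that passed of 12 had a median of -0.06. In the alternative fit by DESeq2, which also tests lower genes, the list median was -0.98. Gfap, the mark of reactive glia, was at 3.12 CPM in control replicate 1 and at or below 0.359 CPM elsewhere. Sterol synthesis genes had a median of 0.10 over 17, with 10 inside 2-fold, and this median fell below 0 in 4 of the 6 fits that left out 1 library.

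Most genes of the large protein complexes of the cell were bounded, as were most well expressed genes. Intervals lay inside 2-fold for 76 of 81 cytosolic ribosomal proteins (median 0.09), 68 of 75 mitochondrial ribosomal proteins (0.01), 33 of 35 proteasome subunits (0.02) and 14 of 17 subunits of the vacuolar ATPase (-0.02). Of all genes tested, 93.5% of the highest expression bin and 83.3% of the next bin did so. Among cytosolic ribosomal proteins 58 lay above 0 and 23 below, where 52.1% of all genes lay above 0. Of these proteins 3 separated with Txnip higher and 1 with Txnip lower, where 2.16% and 2.48% of all genes did so. Ribosomal protein SA (Rpsa) was one of them, at 36.4, 62.7 and 57.9 CPM in controls and 67.5, 75.8 and 69.1 CPM with Txnip (log2 fold change 0.43, 95% interval -0.10 to 0.97).

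A list of 24 genes, chosen on other samples from degenerating strains and not on these libraries, gave 14 values above 0 and 10 below, with a median of 0.13 and 11 inside 2-fold. In BALB/c the list median was -0.32. The list mixes genes that the study found raised and lowered with Txnip, so these pooled values do not show whether members went the same way. It was not independent of the lists above, since mt-Cytb, mt-Nd4, mt-Co1, Rom1 and Ftl1 are in both. Vax2os and Ablim1 followed the rod-rich pair. Vax2os stood at 165, 6.24 and 25.2 CPM in controls and 22.8, 97.0 and 21.4 CPM with Txnip, and Ablim1 at 61.0, 4.85 and 5.97 CPM against 6.02, 92.4 and 13.0 CPM. The largest value was that of Utp14b, at 1.30 (95% interval -0.19 to 2.80). Cand1 separated the groups upward and Ankle2 downward, as 2.16% and 2.48% of all genes did, with log2 fold changes of 0.22 and -0.34.

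**Figure D4:**
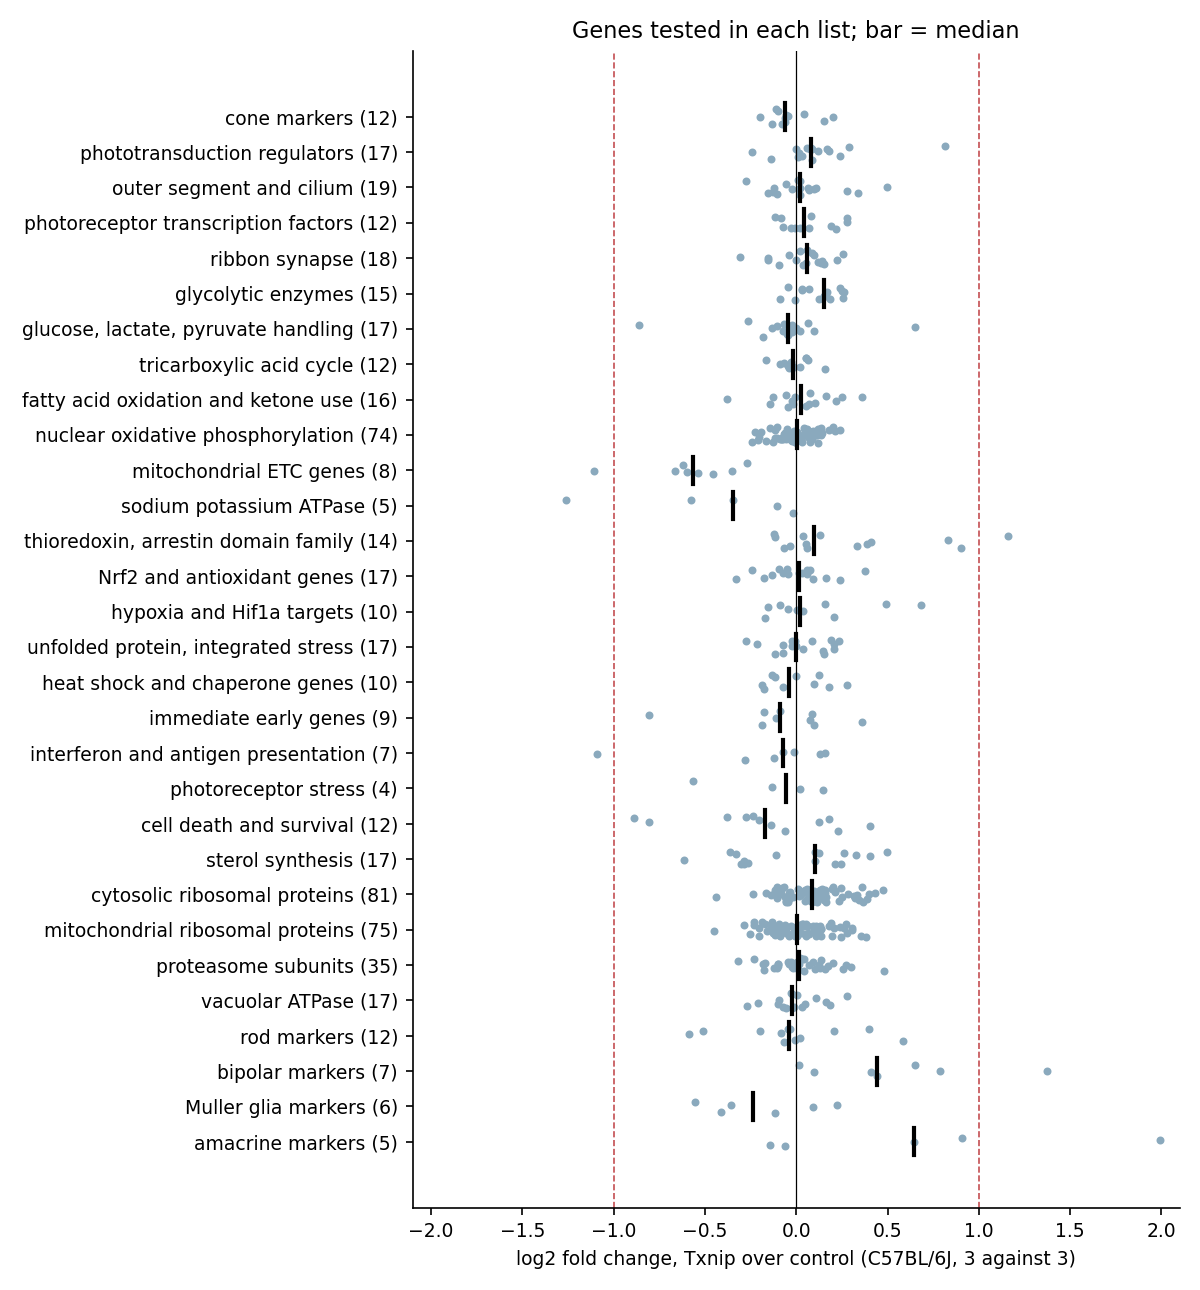
Each point is a tested gene of the list named at the left (number tested in parentheses), with its log2 fold change (Txnip over control) on the horizontal axis, the black bar at the list median and dashed lines at 2-fold. Medians lie between -0.57 for mitochondrial ETC genes and 0.64 for amacrine markers, with nuclear energy and ribosomal protein lists close around 0.

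Among genes at or above the median level, 12 were higher and 10 lower with Txnip with groups that did not overlap and an unadjusted p under 0.05, and 0 of them were called (adjusted p = 1.00). The 10 higher genes with the smallest p ran from 0.50 to 0.79 in log2 fold change. Gsc2, a homeobox factor, stood at 22.9, 19.7 and 23.6 CPM in controls and 44.4, 29.5 and 40.4 CPM with Txnip (0.79 ± 0.25). Nfe2l1, a transcription factor that drives proteasome genes, stood at 56.2, 63.0 and 63.4 CPM against 88.8, 76.9 and 91.7 CPM (0.50 ± 0.19). Every Txnip library exceeded every control in both. The others were Cactin, 4632404H12Rik, Jmjd7, Rasgef1b, Timm29, Rnf187, Slc4a5 and Rbm42. Of these, Jmjd7 shares 66.7% of its exonic bases with Gm28042 and Rbm42 75.4% with Gm21982, so their counts are uncertain.

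The 10 lower genes ran from -0.80 to -0.46. Slc24a5, a potassium-dependent sodium calcium exchanger of pigment cells, stood at 56.2, 28.8 and 31.2 CPM in controls and 20.8, 21.2 and 24.5 CPM with Txnip (-0.80 ± 0.30), and 39.5% of its exonic bases are shared with Myef2 on the opposite strand. Apmap stood at 54.5, 43.6 and 53.5 CPM against 33.4, 31.6 and 36.003 CPM (-0.58 ± 0.21). Asl, which cleaves argininosuccinate in the urea cycle, stood at 42.7, 29.4 and 30.1 CPM against 24.6, 18.7 and 19.9 CPM (-0.69 ± 0.26). In Slc24a5 and Asl, control replicate 1 was the highest library, and without it the values were -0.43 and -0.50. The others were Zfp317, Cyb5r3, Tars2, Dpagt1, Nme7, Psip1 and Zfp867, and Nme7 shares 575 exonic bases with Atp1b1, which was also highest in control replicate 1. Nme7 stood at -0.79 with all 6 libraries and at -0.36 without control replicate 1.

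The BALB/c libraries, which played no part in this choice, gave the same sign for 2 of the 10 higher and 3 of the 10 lower genes, and 0 of the 20 were called there. In BALB/c 2 of 12017 genes tested were called (0.0166%). Several had their larger value in the opposite direction. Gsc2 was -1.76 ± 0.41 in BALB/c, Rnf187 -1.75 ± 0.40, Timm29 -1.19 ± 0.37, Rbm42 -0.95 ± 0.25 and Cactin -0.80 ± 0.26, with a smallest adjusted p of 0.106. Whether the effect of Txnip differed between C57BL/6J and BALB/c was then tested gene by gene in all 18 libraries. Of 14751 genes tested 0 were called (0%), with 706 at an unadjusted p under 0.05 where 738 would be uniform, and DESeq2 also called 0. For Gsc2 the difference was 2.56 ± 0.60, with an adjusted p of 0.906.

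**Figure D5:**
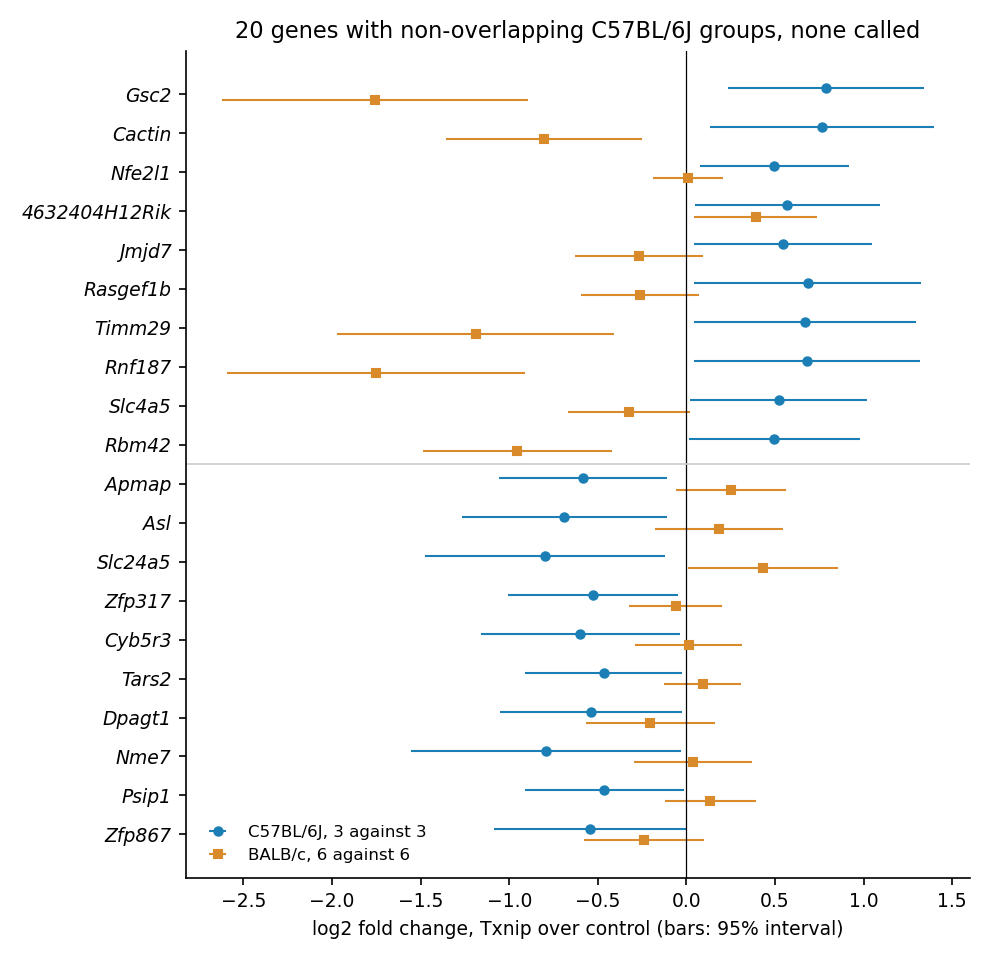
For the 10 higher and 10 lower genes with the smallest unadjusted p among well expressed genes whose C57BL/6J groups did not overlap, circles give the log2 fold change (Txnip over control) in C57BL/6J and squares that in BALB/c, with bars for the 95% interval. The upper 10 lie above 0 in C57BL/6J by the rule that chose them, and Gsc2, Rnf187, Timm29, Rbm42 and Cactin lie below 0 in BALB/c.

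A few low genes were singled out after their values were seen. Ttl, the tubulin tyrosine ligase that restores the terminal tyrosine of alpha-tubulin, had 0, 0 and 1 counts in controls and 11, 9 and 16 with Txnip. The groups did not overlap, but every count was small, and the gene passed the filter only through the Txnip libraries. The ratio of pooled counts was 29.1-fold, with a counting interval of 4.91 to 1183 (95%). Its fitted log2 fold change, which depends on the prior count and is no bound, was 4.55 ± 0.97 with an adjusted p of 1.00, and it was called in 1 alternative, the fit of all 4 groups (adjusted p = 0.0231). In the test between strains it had the smallest adjusted p, 0.339. In BALB/c its counts were 7 to 21 in controls and 3 to 21 with Txnip, so controls of that strain were not near 0. Spp1 (osteopontin) had 77 counts in control replicate 1 and 2 or fewer in every other library, and melanopsin (Opn4), the pigment of intrinsically photosensitive ganglion cells, had 64 counts in control replicate 2 and 3 or fewer elsewhere.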

How the data were processed

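The 6 C57BL/6J libraries were analysed, with the 12 BALB/c libraries used only where named. Per the labels and file headers, the authors aligned reads with STAR and used featureCounts 1.6.2 to count fragments over gene exons (Ensembl 94, GRCm38), with fragments that overlapped several genes counted for each and no strand option, and deposited raw counts for 54532 genes per library. The labels name both antibody staining and H2BGFP for the sort. The authors' tables of their own comparisons, which hold fold changes, p-values and mean counts, were not used. Symbols and exons came from GENCODE M21, and 123 identifiers had no symbol.

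Tests were run on the counts with edgeR 4.0.16 under R 4.3.3 (filterByExpr, TMM, glmQLFit, glmQLFTest) on group only, with Benjamini-Hochberg adjustment over all genes tested and a threshold of 0.05. Intervals (95%) are per gene and not adjusted. The fit was tested on simulated data. CPM values use TMM-scaled library sizes. Totals were 2437910 to 4880195 per library. Wilson intervals and counting intervals cover counting error only. Plots were drawn with matplotlib 3.10.9.

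Named genes were Txnip, Gm15441 and called genes; of genes at or above the median level with non-overlapping groups and an unadjusted p under 0.05, the 10 with the smallest p in each direction; the 15 with the largest spread within groups; list members; and overlapping genes. The list of genes from degenerating strains is the study's own, made on other samples. The libraries, lists and rules were chosen with earlier results of these data known. Alternatives were DESeq2 1.42.0, other normalization, filters, library sizes, covariates, bounds and thresholds, a replicate block, a fit of all groups, robust estimation and each library left out.

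The replicate numbers were checked for pairing by the correlation of same-numbered deviations from the group means. Single-gene results for a few list members are not reported here.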

Additional observations from a re-analysis of the deposited data

How the results depend on the processing

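Txnip and Gm15441 were the 2 genes called in every fit that left out 1 library. With all genes of at least 1 count, edgeR called 5 genes, the added ones being Spp1, Phactr2 and Opn4, all lower with Txnip. Phactr2 had 289, 55 and 29 counts in controls and 16, 52 and 70 with Txnip. With at least 10 counts in every library, edgeR called 0 genes, with 85 at an unadjusted p under 0.05, because Txnip and Gm15441 did not pass that filter. Where tested, log2 fold changes ran from 11.91 to 13.28 for Txnip and from 11.81 to 14.41 for Gm15441. The share of genes with an interval inside 2-fold was 18.9% in DESeq2, 22.4% with all genes of at least 1 count, both of which test many more low genes, 11.1% for a bound of 1.5-fold, and 37.8% to 46.1% with 1 library left out. The median of all genes was 0.032 in DESeq2 and -0.020 to 0.0076 with 1 library left out. The difference between strains gave 0 to 1 calls with 1 library left out, the single one being Epb41l4a without control replicate 1 (adjusted p = 0.0346), whose counts were 15, 1 and 0 in controls and 23, 11 and 25 with Txnip. The unadjusted count at p under 0.05 was 97 as reported, 50 without control replicate 3, 52 without Txnip replicate 3, 325 without control replicate 2 and 190 to 214 with another library left out, 190 with the ribosomal RNA share as a covariate, 117 with the rod share, 122 without both rod-rich libraries, 409 in the fit of all 4 groups, which called 3 with Ttl added, and 113 with an indicator for libraries without Xist, an alternative chosen after seeing the data. Same-numbered libraries had deviations that correlated at 0.018, 0.274 and -0.106, so the labels' numbers were not taken to pair the samples. Control replicates 1, 2 and 3 correlated at 0.264, 0.539 and 0.689 with Txnip replicates 2, 3 and 1. With Txnip replicates 3, 1 and 2 they correlated at -0.506, -0.543 and -0.671. A match under other numbers was not tested, and the unpaired fit takes no account of one. The replicate block, which used the labels' numbers, gave 2 calls, 101 genes at p under 0.05 and 0 calls between strains. The rule that chose the 20 ranked genes fixes their direction when a library is left out, so their refits say nothing of stability. Of 716 refitted list medians 31 moved by more than the spread between libraries.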
